A study of Mus musculus with 2 samples.

Results

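The genes described here are those of the insulin-like growth factor (IGF) axis in sorted mouse lung epithelial cells: the binding protein genes Igfbp2 to Igfbp7, the ligand gene Igf1 and the receptor genes Igf1r, Igf2r and Insr. They are 10 of 15113 genes listed in at least 1 of 2 deposited expression tables and were found by symbol, with a gene missing from a table taken as 0. The family was selected on the expression values of these same 2 libraries, so its levels and ratios are descriptions with no test. Each table held 1 RNA sequencing library of lung cells sorted on the absence of CD45, which marks leukocytes, and the presence of Sftpc, a surfactant protein made by alveolar type 2 cells. Both groups were C57BL/6 mice aged 6 to 8 weeks. The tumour-bearing group had 1000000 luciferase-carrying cells of the mouse Lewis lung carcinoma line (LLC) injected under the skin of the dorsum, a model of spontaneous lung metastasis. The control group was wild type without a tumour. The sources used here do not give the time from injection to sampling, the number of mice behind a library or the way the sort detected Sftpc.

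IGF1 and IGF2 are secreted growth factors that signal through IGF1R, a receptor tyrosine kinase closely related to the insulin receptor, INSR. IGF-binding proteins hold the ligands in blood and in the extracellular matrix, limit their access to the receptor and can release them when proteases cut the binding protein. IGF2R has no kinase activity: it carries IGF2 to lysosomes for degradation and sorts enzymes that bear mannose 6-phosphate. In the lung, IGF1 is made mainly by stromal cells and macrophages, and the receptors are found on many cell types, the alveolar epithelium included.

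Igfbp4, Igfbp3 and Igfbp2 were the binding protein genes with the largest ratios in favour of the tumour-bearing library, and Igfbp5 was the one that was lower there. The 250 bases before their annotated starts are shown because they are the regulatory sequence nearest to these 4 genes. They come from RefSeq on GRCm38.p6, the assembly that mm10 denotes, and are written 5′ to 3′ on the strand of the gene. Capitals mark matches to the TATA box TATAAA, the CAAT box CCAAT, the Sp1 motif GGGCGG, the FoxO motif GTAAACA, the STAT motif TTCNNNGAA and the AP-1 motif TGANTCA, searched on both strands. The windows are chr11:99040994-99041243 (plus strand) for Igfbp4, chr11:7213924-7214173 (minus strand) for Igfbp3, chr1:72824230-72824479 (plus strand) for Igfbp2 and chr1:72874866-72875115 (minus strand) for Igfbp5.
Igfbp4: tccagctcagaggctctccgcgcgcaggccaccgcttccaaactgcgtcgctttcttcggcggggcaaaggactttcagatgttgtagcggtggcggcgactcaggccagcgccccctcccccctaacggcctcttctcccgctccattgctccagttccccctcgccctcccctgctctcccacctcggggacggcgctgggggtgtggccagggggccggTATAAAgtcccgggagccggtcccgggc
Igfbp3: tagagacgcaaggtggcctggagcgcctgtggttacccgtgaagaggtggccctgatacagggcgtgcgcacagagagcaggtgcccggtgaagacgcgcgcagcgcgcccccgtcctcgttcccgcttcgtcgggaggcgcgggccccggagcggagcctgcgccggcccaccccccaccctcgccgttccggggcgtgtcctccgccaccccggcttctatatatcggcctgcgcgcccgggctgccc
Igfbp2: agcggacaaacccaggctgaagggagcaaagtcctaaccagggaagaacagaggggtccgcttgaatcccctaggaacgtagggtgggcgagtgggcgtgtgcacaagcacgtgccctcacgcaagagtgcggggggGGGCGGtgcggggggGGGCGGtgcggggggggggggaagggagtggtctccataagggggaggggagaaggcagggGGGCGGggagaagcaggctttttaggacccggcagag
Igfbp5: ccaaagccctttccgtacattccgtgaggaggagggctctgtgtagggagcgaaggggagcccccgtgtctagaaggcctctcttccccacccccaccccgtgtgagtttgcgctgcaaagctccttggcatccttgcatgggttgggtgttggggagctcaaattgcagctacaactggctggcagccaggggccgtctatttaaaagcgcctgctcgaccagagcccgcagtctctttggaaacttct

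Igfbp4, Igfbp3 and Igfbp2 shared none of the 6 motifs in these windows. The windows of Igfbp4 and Igfbp3 lie inside the annotated spans of these genes given below, which begin farther upstream. The Igfbp4 window held TATAAA at 28 to 23 bases before the start, a motif found in 12.4% of 32851 RefSeq windows of the same length. The Igfbp2 window held GGGCGG in 3 places, and this motif was present in 32.7% of all windows. The windows of Igfbp3 and Igfbp5 held none of the 6. The G and C content was 69.2% for Igfbp4, 73.2% for Igfbp3, 67.2% for Igfbp2 and 58.8% for Igfbp5, against a median of 52.4% over all windows. The RefSeq table gave 10 windows for 9 of the 10 genes, Igfbp2 having a further start, and none for Insr. None of the 10 held the FoxO or the STAT motif, which 3.17% and 7.02% of all windows held. A match to these letters, or its absence, describes the sequence and not the binding of a factor.

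RPKM, the unit of all levels below, scales the reads of a gene to its length and to all reads of the library, which lets genes of different length be set side by side. Whole reads could be worked back from the digits of the RPKM values, and they put the library totals at 5335352 reads in the control and 5387114 reads in the tumour-bearing library. With 1 library in each group, replicates cannot be used to check any difference, and p-values are not printed. Intervals are exact 95% intervals of the read numbers, and they cover counting error only. Sftpc was the most abundant gene, with 94903 RPKM for control and 54968 RPKM for tumour-bearing cells, and Ptprc, which encodes CD45, had 12 and 2 reads. All 15 genes of an alveolar type 2 marker list were read in both libraries, with summed RPKM of 151240 and 101972. Markers of other cell types were read too and differed between the libraries. Club secretory and alveolar type 1 cells had the largest of these sums in both. With the control value first, 6 club genes summed to 32769 and 37301 RPKM, of which Scgb1a1 made up most. The 12 alveolar type 1 genes summed to 1873 and 3074, 6 ciliated genes to 547 and 409, and 5 mesothelial genes to 85.3 and 161. The keratin gene Krt19, at 83.6 and 144 RPKM, made up most of the mesothelial sum, and Msln was at 1.49 and 16.6 RPKM. From control to tumour-bearing, the summed RPKM came to 89.4 and 716 for 14 fibroblast genes, 44.0 and 197 for 14 endothelial genes, 3.82 and 15.2 for 8 smooth muscle and pericyte genes, and 15.0 and 46.7 for 10 macrophage and monocyte genes.

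Across the family, 4 genes were higher by 2-fold or more in the tumour-bearing library, 0 were lower by that much and 6 stayed within 2-fold, on the scale log2((tumour-bearing RPKM + 1)/(control RPKM + 1)). The same measure over the 12288 genes that reached 1 RPKM in either library put 9.38% on the higher side by 2-fold or more and 6.53% on the lower side. All 10 genes passed that low-value limit, but Igfbp3 and Igf1 passed it only through the library in which they were higher. Because these values chose the family, nothing is read from its count. The median log2 ratio was 0.57 over the 10 genes and 0.06 over all genes tested. The plot of levels by library shows the widest gaps for Igfbp4, Igfbp3 and Igf1. The receptor genes and the binding protein gene Igfbp7 had small gaps, so the ratios of the 2 roles overlapped.

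**Figure D1:**
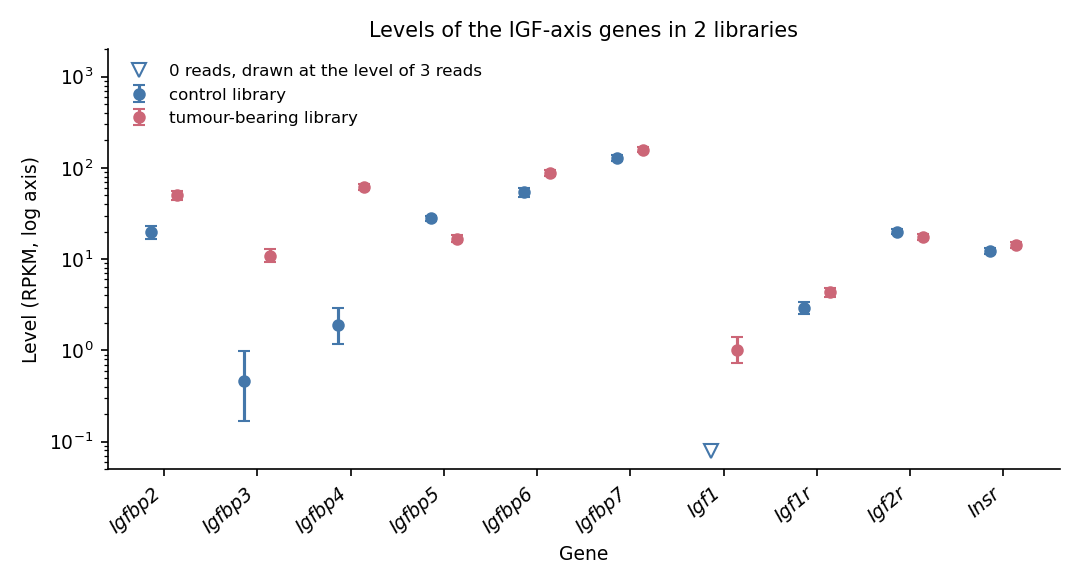
Level of each IGF-axis gene in RPKM on a log axis, in the control library (blue) and the tumour-bearing library (red), 1 library per group; bars are exact 95% Poisson intervals of the reads, and the open triangle marks 0 reads, drawn at the level of 3 reads. Igfbp4 was at 1.90 and 62.4 RPKM and Igfbp3 at 0.458 and 11.0 RPKM, and Igfbp7 was the most abundant of the family in both libraries.

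Igfbp4 (GeneID 16010, chr11:99040005-99052655), which encodes a small binding protein that mostly inhibits IGF action, had the highest ratio of the family. It was at 1.90 RPKM in the control library, from 21 reads, and at 62.4 RPKM in the tumour-bearing library, from 696 reads. The ratio was 32.8-fold (21.3 to 53.4), and the log2 ratio of 4.45 ranked 5 of 12288. In bulk RNA, more cells that make a transcript and more transcript per cell cannot be told apart. Among genes at 10 RPKM or more, those with the nearest log2 ratio were Fkbp5 (4.46), a co-chaperone of steroid receptors, Col1a2 (4.38), a collagen I chain of fibroblasts, and Sphk1 (4.35), a sphingosine kinase. Col1a2 is in the fibroblast marker list, and Fkbp5 and Sphk1 are in none of the marker lists. Sphk1 was at 1.89 and 58.1 RPKM, the nearest of the 3 to Igfbp4 in level in both libraries. With 2 libraries this likeness is a likeness of 1 ratio only.

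Igfbp3 (GeneID 16009, chr11:7206086-7215498) encodes the main carrier of IGFs in the circulation, which also acts in tissues. Its level was 0.458 RPKM in control cells and 11.0 RPKM in tumour-bearing cells. The direct ratio was 23.9-fold with a wide interval of 10.7 to 66.3, since the control value rests on 6 reads against 145. Its log2 ratio of 3.04, on the scale with 1 RPKM added, understates that ratio.

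Igfbp2 (GeneID 16008, chr1:72824480-72852474) encodes a binding protein abundant in fetal tissues. It was at 19.8 RPKM in the control library, from 142 reads, and at 49.9 RPKM in the tumour-bearing library, from 361 reads, a 2.52-fold difference (2.07 to 3.08). Igfbp5 (GeneID 16011, chr1:72858065-72874865) is its neighbour on chromosome 1, with 5590 bases between the annotated ends, and encodes a binding protein that associates with extracellular matrix. It was at 27.9 RPKM in the control library, from 872 reads, and 16.8 RPKM in the tumour-bearing library, from 529 reads, 1.66-fold lower (1.49 to 1.86). The order of these neighbours differed between the libraries. Igfbp2 stood at 0.710 of the Igfbp5 level in the control library (0.591 to 0.849) and at 2.98 times that level in the tumour-bearing library (2.60 to 3.41).

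Igfbp6 and Igfbp7 were the most abundant binding protein genes in both libraries, and their ratios were small. Igfbp6 (GeneID 16012, chr15:102144186-102149512), whose product prefers IGF2 over IGF1, was at 53.9 and 87.8 RPKM, from 375 and 617 reads, 1.63-fold higher in the tumour-bearing library (1.43 to 1.86). Igfbp7 (GeneID 29817, chr5:77349240-77408045), whose product is related to the family but binds IGFs weakly, was at 128 and 158 RPKM, from 828 and 1034 reads, 1.24-fold higher (1.13 to 1.36). An annotated exon of Igfbp7 overlaps one of Polr2b on the opposite strand, and no source used here gives the strand setting of the counting, so reads there cannot be told apart. Polr2b was at 18.4 and 22.4 RPKM.

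Together the 6 binding protein genes summed to 232 RPKM in control cells and 386 RPKM in tumour-bearing cells, a 1.66-fold difference. The sums differed by a net 154 RPKM, in which the lower Igfbp5 level offsets part of the higher levels. Igfbp2, Igfbp3 and Igfbp4 together were 101 RPKM higher, and Igfbp6 and Igfbp7 were higher as well. Igfbp7 supplied 55.2% of the control sum and 41.0% of the tumour-bearing sum, and Igfbp6 supplied 23.2% and 22.7%. Igfbp4 supplied 0.820% of the control sum and 16.2% of the tumour-bearing sum, and Igfbp5 supplied 12% and 4.34%. Without Igfbp7 the sums were 104 and 228 RPKM, a 2.19-fold difference.

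**Figure D2:**
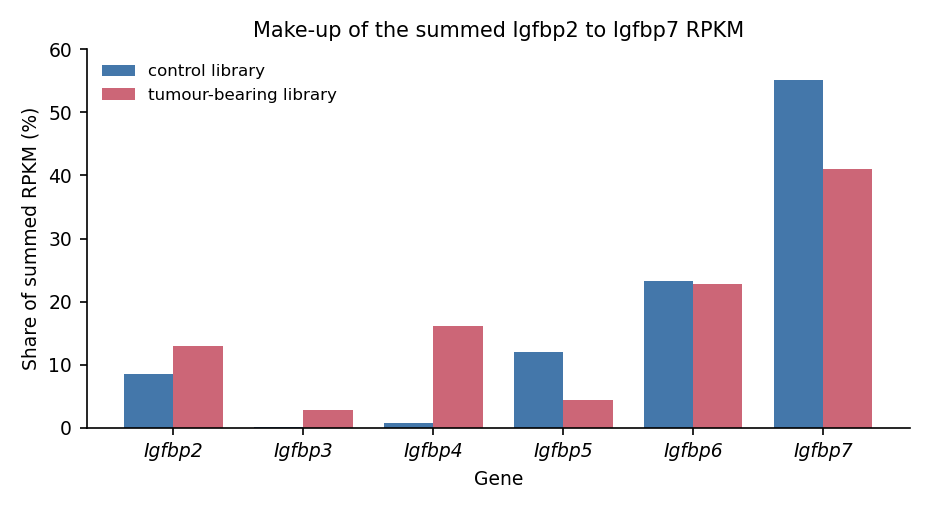
Share of each gene, in percent, in the summed RPKM of Igfbp2 to Igfbp7, in the control library (blue) and the tumour-bearing library (red), 1 library per group. Igfbp7 and Igfbp6 were the largest shares in both libraries, and Igfbp4 was 0.820% of the control sum and 16.2% of the tumour-bearing sum.

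Igf1 (GeneID 16000, chr10:87858265-87937047) was the lowest of the family in both libraries. It encodes the ligand of IGF1R. It had 0 reads in the control library. The exact interval there reached up to 0.0971 RPKM, and the floor of 3 reads was 0.0790 RPKM. In the tumour-bearing library it had 39 reads or 1.02 RPKM, with an interval of 0.723 to 1.39 RPKM. Set against the floor of 3 reads, the tumour-bearing level was 12.9-fold higher. That value leaves out the counting error of the 39 reads, so it is not a lower limit. On the scale with 1 RPKM added the log2 ratio was 1.01, just past 2-fold. Igf1 lay below the low-value limit under trimmed-mean scaling, upper-quartile scaling and scaling to the library sum without Sftpc. It also missed 2-fold after centring on the median or with a pseudocount of 5, and in each of these cases 3 genes were past 2-fold on the higher side. Igf2, the other IGF ligand gene, was at 2.88 and 3.54 RPKM, from 62 and 77 reads, a ratio of 1.23 with an interval of 0.869 to 1.75 that includes 1.

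The 3 receptor genes differed less between the libraries than Igfbp2, Igfbp3, Igfbp4 or Igf1 did. Igf1r (GeneID 16001, chr7:67952257-68233668), the signalling receptor of both IGFs, was at 2.91 and 4.32 RPKM, from 186 and 279 reads, 1.49-fold higher (1.23 to 1.80). Insr (GeneID 16337, chr8:3150922-3279649), the insulin receptor gene, was at 12.3 and 14.4 RPKM, from 614 and 726 reads, 1.17-fold higher (1.05 to 1.31). Igf2r (GeneID 16004, chr17:12682406-12769706) was at 20 and 17.6 RPKM, from 955 and 846 reads, 1.14-fold lower (1.04 to 1.25). The span of Igf2r overlaps that of its antisense RNA gene Airn (chr17:12741311-12859884), listed at 4.02 and 4.94 RPKM, and reads of the 2 strands cannot be told apart without the strand setting.

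Within a library the receptors kept 1 order, Igf2r above Insr above Igf1r. Insr was 4.23 times the Igf1r level in the control library (3.58 to 5.01) and 3.33 times in the tumour-bearing library (2.90 to 3.84). Igf2r was 6.87 times the Igf1r level in the control library (5.87 to 8.09) and 4.06 times in the tumour-bearing library (3.54 to 4.66). The summed binding protein RPKM was 79.7 times that of Igf1r in the control library and 89.3 times in the tumour-bearing library.

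In the control library the levels ran down from Igfbp7 through Igfbp6, Igfbp5, Igf2r, Igfbp2, Insr, Igf1r, Igfbp4 and Igfbp3 to Igf1. Neighbours in this order differed beyond counting error, except Igf2r against Igfbp2, with a ratio of 1.01 (0.845 to 1.21), and Igf1r against Igfbp4, with a ratio of 1.53 (0.972 to 2.53). Igfbp3 against Igf1, at 0 reads, was not compared. In the tumour-bearing library the order was Igfbp7, Igfbp6, Igfbp4, Igfbp2, Igf2r, Igfbp5, Insr, Igfbp3, Igf1r and Igf1. There the neighbours whose interval included a ratio of 1 were Igf2r and Igfbp5, at 1.05 (0.937 to 1.17). Igfbp4 stood below Igf2r and Insr and was not separable from Igf1r in the control library, and it stood above all 3 in the tumour-bearing library.

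Markers of stromal cells were higher in the tumour-bearing library, as were Igfbp4, Igfbp3, Igfbp2 and Igf1. Of 14 fibroblast markers 12 were tested, and 10 of these were at least 2-fold higher, against 9.38% of all genes tested. Lum, Pdgfra and Dpt passed the low-value limit only through the tumour-bearing library. The summed fibroblast RPKM was 8.01-fold higher, with Lum, Tcf21 and Pi16 at 0 in the control library. In the tumour-bearing library Lum had 20 reads, and Tcf21 and Pi16 had 2 each. Clec3b, at 15 and 9 reads, was the tested marker on the lower side. Col1a2 was at 1.06 and 41.8 RPKM and Col3a1 at 2.66 and 73.5 RPKM. Alveolar epithelium also expresses Npnt, a matrix protein gene of the list, and without it the fibroblast sum was 10.8-fold higher. Of 14 endothelial markers 12 were at least 2-fold higher, with the sum 4.48-fold higher and none at 0 in either library. Flt1, Cldn5, Vwf, Emcn and Gpihbp1 passed the low-value limit only through the tumour-bearing library. The largest log2 ratios of the list were those of Gpihbp1 (4.22, from 1 and 97 reads), Cldn5 (3.50, from 6 and 147 reads) and Lyve1 (3.34, from 25 and 384 reads). Kdr was 1.89-fold lower (1.47 to 2.43), and Tek, at 92 and 79 reads, had a ratio of 0.850 (0.622 to 1.16). Of 10 macrophage and monocyte markers 5 were tested, with Cd68 and C1qb past 2-fold on the higher side and Chil3 on the lower side, at 19 and 0 reads. C1qb, at 0 and 32 reads, and Chil3 each passed the low-value limit through 1 library only. The sum over this list was 3.11-fold higher, with 6 markers at 0 in each library, and Cd68 alone was at 7.81 and 31.5 RPKM. The 6 leukocyte markers summed to 3.53 and 3.08 RPKM, 0.873 times the control value. The smooth muscle and pericyte sum was 3.99-fold higher, with 4 of 8 markers at 0 in the control library, Acta2 among them, and Acta2 at 3 reads in the tumour-bearing library. The part of these cells in the values of Igfbp4, Igfbp3, Igfbp2 and Igf1 was not tested. Epithelial lists differed as well. The club sum was 1.14 times and the ciliated sum 0.747 times the control value. Scgb1a1, at 30142 and 35116 RPKM, made up most of the club sum, so that ratio mainly reflects this gene. In the club list 4 of 6 genes were above 0 in log2 ratio. Scgb3a1 was 3.67-fold higher (3.21 to 4.20), Cyp2f2 2.45-fold lower (2.37 to 2.53) and Scgb3a2 1.70-fold lower (1.59 to 1.81). Alveolar type 1 markers summed to 1.64 times the control value, with 7 of 12 at least 2-fold higher, and alveolar type 2 markers to 0.674 times the control value, with 1 of 15 past 2-fold on the higher side and 2 on the lower side. Without Sftpc the alveolar type 2 sum was 0.834 times the control value, and the list's median log2 ratio was -0.21, with 6 of 15 genes above 0.

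Outside the family, 102 further genes of the pathway were read in 7 lists. Of 81 that were tested, 5 were past 2-fold on the higher side (6.17%, against 9.38% of all genes), 6 on the lower side (7.41%, against 6.53%) and 70 stayed within 2-fold. These shares are near the background. Their median log2 ratio was 0.14.

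Among the other ligands, binding proteins and carriers, Igfals, the acid-labile subunit that stabilises circulating IGF complexes, was at 5.42 and 2.02 RPKM, from 61 and 23 reads, 2.68-fold lower (1.63 to 4.53). Ins1, Ins2, Igfbp1 and Igfbpl1 were listed in neither table. Of the proteases that cut binding proteins, and their regulators, 10 of 20 were tested. Of these, 4 were past 2-fold on the higher side and 0 on the lower side, against 9.38% and 6.53% of all genes tested. Plat and Plau passed the low-value limit only through the tumour-bearing library. Plat, tissue plasminogen activator, was 16.4-fold higher (6.77 to 52.0), at 0.368 and 6.05 RPKM. Mmp2, a gelatinase of stromal cells, was 7.08-fold higher (4.42 to 11.9), at 1.22 and 8.65 RPKM. Furin, a proprotein convertase that also matures the insulin and IGF1 receptors, was 2.03-fold higher (1.87 to 2.21), at 35.3 and 71.7 RPKM. Htra1, a secreted serine protease, was 1.73-fold higher (1.42 to 2.11), and Ctsd, a lysosomal protease and the most abundant of the list, was 1.21-fold higher (1.14 to 1.29). Pappa, singled out after its values were seen because its product is the protease that cuts IGFBP4, had 0 and 2 reads, and its inhibitors Stc1 and Stc2 had 0 and 11 and 0 and 4 reads.

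Receptor adaptors and negative regulators were the list with the most genes on the lower side. Of 16 tested, 5 were past 2-fold on the lower side and 0 on the higher side, with a median log2 ratio of -0.13. Over all genes tested, 6.53% were past 2-fold on the lower side. Irs2, a docking protein of the insulin and IGF1 receptors, was at 46.0 and 18.7 RPKM, 2.46-fold lower (2.19 to 2.76). Socs3, a feedback inhibitor of cytokine and insulin signalling and the most abundant of the list, was at 270 and 111 RPKM, 2.43-fold lower (2.29 to 2.57). Grb14, an adaptor that inhibits the insulin receptor, was 2.12-fold lower (1.90 to 2.36), at 95.3 and 45.0 RPKM, and the adaptor gene Grb7 was 2.09-fold lower (1.79 to 2.45). Socs1, with 33 and 11 reads, was the fifth. The 5 genes past 2-fold thus included both inhibitors and a docking protein of the receptors. Other genes of the list went the other way, with 7 of the 16 above 0 in log2 ratio. Among these, Grb10 was 1.27-fold higher (1.03 to 1.57) and Ptpn1 1.20-fold higher (1.07 to 1.34). Shc1, an adaptor that links receptors to Ras, was 1.90-fold higher (1.73 to 2.10), named after its values were seen.

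In the list of PI3K, AKT, mTORC1 and FoxO genes, 30 of 31 tested genes were within 2-fold and the median log2 ratio was 0.16. The exception was Eif4ebp1, a translation repressor controlled by mTORC1, at 4.20 and 22.3 RPKM, 5.31-fold higher (3.35 to 8.80). Ddit4, an mTORC1 inhibitor gene, was 1.70-fold higher (1.43 to 2.02), Foxo1, a transcription factor held back by insulin signalling, 1.67-fold higher (1.47 to 1.90) and Tsc1 1.82-fold higher (1.46 to 2.27). Akt1, the most abundant of the list in the tumour-bearing library, was 1.60-fold higher (1.48 to 1.74). In the mannose 6-phosphate pathway, to which Igf2r belongs, 14 of 14 tested genes were within 2-fold, with a median of -0.02. M6pr, the other mannose 6-phosphate receptor gene, was at 89.7 and 79.8 RPKM, a ratio of 0.890 beside 0.877 for Igf2r. Lrp2, an endocytic receptor gene, was 1.65-fold lower (1.56 to 1.74), and Ap1m1, an adaptor subunit for vesicle sorting, was 1.99-fold higher (1.52 to 2.63).

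Genes for receptor maturation and splicing were within 2-fold in 7 of 8 cases, Furin being the exception with a log2 ratio of 1.00. Hsp90b1, a chaperone of the endoplasmic reticulum, was 1.44-fold lower (1.38 to 1.5), and the splicing factor genes Srsf3 and Mbnl1 were 1.40-fold lower (1.26 to 1.55) and 1.37-fold higher (1.25 to 1.5). Of the IGF2 mRNA-binding protein genes, Igf2bp2 passed the low-value limit, at 8.12 and 11.7 RPKM, 1.44-fold higher (1.18 to 1.76). The plot of log2 ratios by list shows Igfbp4 and Igfbp3 as the points farthest to the right of all 8 rows.

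**Figure D3:**
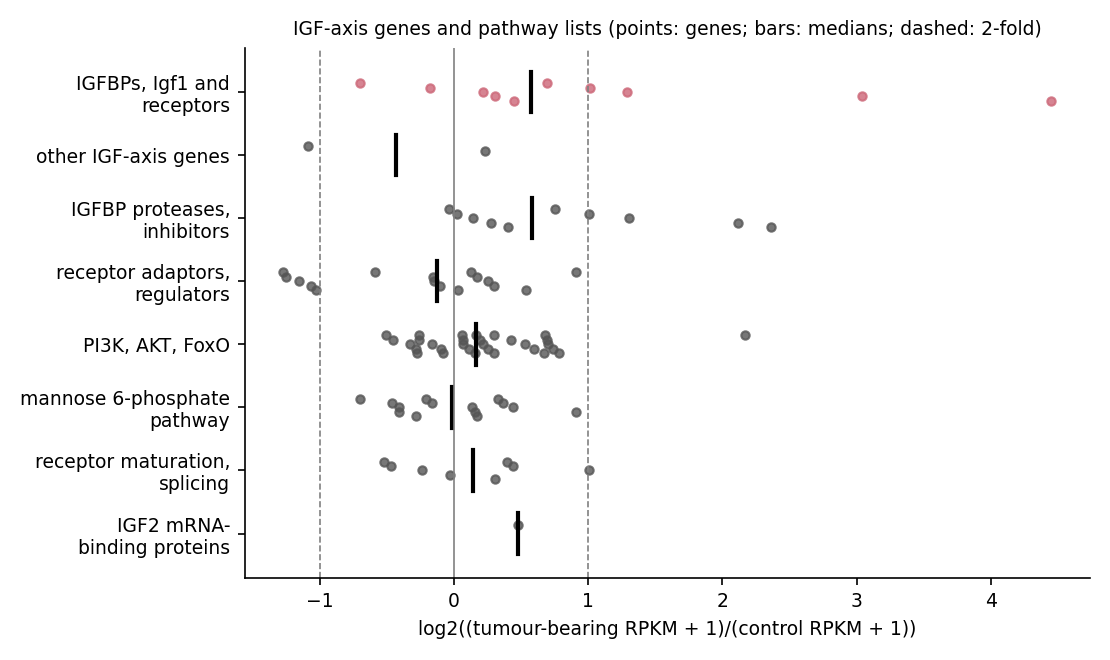
Each point is 1 tested gene at its log2((tumour-bearing RPKM + 1)/(control RPKM + 1)), in rows for the IGF binding protein, ligand and receptor genes (red) and 7 further pathway lists (grey); black bars are medians and dashed lines mark 2-fold. Igfbp4 at 4.45 and Igfbp3 at 3.04 lie beyond Plat at 2.37 and Eif4ebp1 at 2.16, and the lower side of the adaptor row holds 5 genes past 2-fold.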

How the data were processed

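RNA was sequenced from 2 libraries, 1 per group. Libraries were made from DNase-treated, oligo(dT)-enriched and fragmented RNA by random priming and PCR, per the labels' protocols. Trimmomatic and mm10 are named in the submitters' processing notes, without versions. No aligner, counting tool, annotation or strand setting is named in the sources used here. The authors deposited RPKM per gene, per the file headers, and these values were compared as deposited.

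Whole reads were recovered for 15068 of 15113 genes (99.7%) from the ratios of the 2 libraries' RPKM and the row order, requiring a gene length whole within 0.02 base. The row order failed in 7 of 28123 neighbouring pairs. Totals are estimates of this work. In simulated data for the 2 libraries with 15068 genes, reads were recovered for 99.85% of genes and were correct for 99.96% of these. Reads gave the intervals: exact conditional binomial (Clopper-Pearson) for ratios and exact Poisson for levels. A gene with 0 reads was set at 3 reads for its ratio, which leaves out the counting error of the other library. PCR reads without molecular identifiers are not independent molecules.

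The measure was log2 with 1 RPKM added, for genes that reached 1 RPKM in either library, with a size rule of 2-fold and no test. Symbols came from a RefSeq table by GeneID for 15080 genes. A rule chose genes to name. It took the family, Sftpc and Ptprc, and up to 4 genes per pathway list and 3 per marker list with the largest ratio at 5 RPKM or more. It added the gene of each pathway list with the highest level in either library, and the 3 genes nearest Igfbp4 in log2 ratio at 10 RPKM or more. Not every pathway or marker gene that the rule chose is printed. Igf2, Socs1, Shc1, Grb10, Ptpn1, Pappa, Stc1, Stc2, Plau, Lum, Tcf21, Pi16, Clec3b, Npnt, Pdgfra, Dpt, Kdr, Tek, Flt1, Vwf, Emcn, Chil3, Acta2 and Scgb1a1 were named after their values were seen. Members and lists were chosen with earlier results of these data known. Alternatives were other pseudocounts, filters, scalings, thresholds and recovered reads; marker sums without Sftpc or Npnt were added after seeing the data. Python 3.11.15, pandas 2.3.3 and SciPy 1.17.1 were used.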

Additional observations from a re-analysis of the deposited data

How the results depend on the processing

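The number of family genes at least 2-fold higher was 3 or 4 under every alternative that kept the 2-fold rule. The number past the threshold was 5 at 1.5-fold and 2 at 4-fold. The number at least 2-fold lower was 0 under every alternative but a threshold of 1.5-fold, which gave 1 (Igfbp5). The family's median log2 ratio was 0.28 with a pseudocount of 5, 0.41 with trimmed-mean scaling, 0.37 with upper-quartile scaling and 0.39 with scaling to the library sum without Sftpc; these scalings put Igf1 below the low-value limit, leaving 9 genes. The median over all genes tested changed sign with upper-quartile scaling (-0.0258) and with the sum without Sftpc (-0.0039). Of 85 single-gene log2 ratios under alternatives, 76 stayed within the counting interval of the main value, 9 moved outside it and 0 changed sign. A further 5 gave no value, where Igf1 or Igf1r missed the filter. Pseudocounts and filters cannot change a sign. The largest shift by a scaling was -0.0892 in log2, smaller in size than the -0.179 of Igf2r, the family ratio nearest 0. The 0 sign changes are therefore no check of direction. Igfbp4 ranged from 3.29 to 5.0, Igfbp3 from 1.55 to 4.47 and Igf1 from 0.27 to 6.29. With a pseudocount of 5, the other pathway genes at least 2-fold higher or lower numbered 3 and 3. The ratio of summed binding protein RPKM was 1.57 with upper-quartile scaling and 2.19 without Igfbp7. No paired analysis was possible because each group held 1 library, and for the same reason no library could be left out.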

Other observations

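The lengths implied by the deposited values bear on comparisons between genes of the family. They ranged from 1213 bases for Igfbp7 to 11978 bases for Igf1r, and none matched a transcript length of its gene in GENCODE M21. For Igfbp4 the implied length was 2069 bases, 0.540 of its longest GENCODE transcript of 3831 bases. For the other 9 genes it was 0.975 to 1.17 of the longest.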
